A study of Glycine soja with 14 samples.

Results

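Nitrate assimilation was followed through 10 probe sets of the soybean genome array, out of 37593 soybean probe sets, in roots of wild soybean (Glycine soja, line G07256). The members were the 3 probe sets with the gene symbol NIR, the 2 with the symbol GS1alpha, and 5 more whose descriptions in the study's gene lists name a glutamine synthetase, a nitrate transporter, a nitrite reductase or a nonsymbiotic hemoglobin. Descriptions were searched for nitrate reductase as well, with no match in the lists used here. Seedlings were moved into dilute Hoagland's solution with 50 mmol/L NaHCO3 at pH 8.5, and the 3 cm root apex was taken at 0 h, as the unstressed control, and at 6 later times, namely 0.5 h, 1 h, 3 h, then 6 h, then 12 h and last 24 h in NaHCO3. Each of the 7 times had 2 arrays, 14 in all, and each array held RNA pooled from 3 plants. All seedlings were of the same line and were grown in the same solution before NaHCO3. The labels give the same seedling age and the same day length for all 14 arrays, while the methods give other values for both. There was no unstressed root at the later hours, so the time in NaHCO3 and the time of day cannot be told apart.

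Roots take nitrate up through transporters of the NRT1 and NRT2 families, and nitrate reductase turns it into nitrite in the cytosol. Nitrite reductase, a plastid enzyme that draws electrons from ferredoxin, turns nitrite into ammonium, which glutamine synthetase then fixes onto glutamate, in the cytosol as GS1 and in the plastid as GS2. Nonsymbiotic hemoglobins bind oxygen and nitric oxide and are known in plants to turn nitric oxide back into nitrate, and in roots the oxidative pentose phosphate pathway supplies much of the reducing power that nitrite reduction uses.

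Values are log2 intensities, and a change of 1 is a 2-fold difference. A change was called at an unadjusted p under 0.05 together with a Benjamini-Hochberg adjusted p under 0.15 in limma, fitted to 28567 soybean probe sets on all 14 arrays. All 10 members passed the filters on low and unstable signal. At least 9 of them, all but the dimmest NIR probe set, were in the study's lists of genes that had changed on these same arrays, so their calls are a description and no independent support. Background, the 95th percentile of probe sets for soybean pathogens, lay at 3.91, and 9 members stood above it on every array while the dimmest NIR probe set was at or under it on 3. In pooled roots, fewer cells of a type and less RNA per cell cannot be told apart.

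Some facts of the arrays bear on every value. The nodule list held 20 probe sets. The 12 with nodulin symbols (N- and ENOD), genes of the root nodule, averaged 6.59 to 9.75 on 11 arrays and only 3.51, 4.27 and 4.38 on replicate 2 of 0.5, 1 and 6 h, although the labels do not speak of nodules or inoculation. One of them, N-44, read 12.85 on replicate 1 of 0.5 h and 1.16 on replicate 2. At 3 h the mean of the 12 was 9.52 on replicate 1 and 6.59 on replicate 2. The other 8, found through the word nodulin in a name or description, averaged 8.0 to 8.91 on those 3 arrays and 7.63 to 9.06 on the rest. Replicate 1 of 0.5 h and replicate 2 of 12 h also had lower hybridization controls (9.45 and 9.29, against 10.09 to 10.75 on the others). The poly-A controls averaged 7.49 to 8.06 on the arrays of 1 and 3 h and 5.60 to 6.55 on the others. That difference follows the times, and its part in the changes between times was not tested. Of 7 probe sets of the root tip list, 6 averaged 4.94 to 8.33, and PLT2 averaged 3.95, which is at background. Arrays of different times were tied together only through their median level, and another centring moved the balance of calls over all probe sets. At 3 h it was 1428 higher and 3421 lower as deposited and 2381 higher and 1548 lower with each array centred on its median soybean signal. The same counts at 6 h were 2477 and 3445 as deposited and 3360 and 2703 centred. At 12 h they were 2271 and 4673 as deposited and 4069 and 3851 centred, and for 24 h 1733 and 5594, and 4584 and 3396. No called change of a member turned round under median centring or quantile normalization.

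NIR, the gene of the plastid nitrite reductase, fell at 3 and 6 h on all 3 of its probe sets, and at 12 h no change from 0 h was called on any of them. On the first probe set (cluster GmaAffx.80581) the log2 intensities were 9.73 and 9.53 (0 h), 9.63 and 9.93 (0.5 h), 9.26 and 9.18 (1 h), 6.83 and 6.51 (3 h), 6.11 and 6.39 (6 h), 9.72 and 10.29 (12 h), and 9.55 and 9.0 (24 h). The 4 arrays of 3 and 6 h were thus lower than any of the other 10, with no overlap. Against 0 h the level was lower by 2.96 ± 0.25 at 3 h (log2 change -2.96, SE, adjusted p = 0.00222) and 10.4-fold lower at 6 h (log2 change -3.38 ± 0.25, adjusted p = 0.00019). In linear intensity this was 69.1 and 84.0 at 6 h, against 847 and 739 at 0 h.

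**Figure D1:**
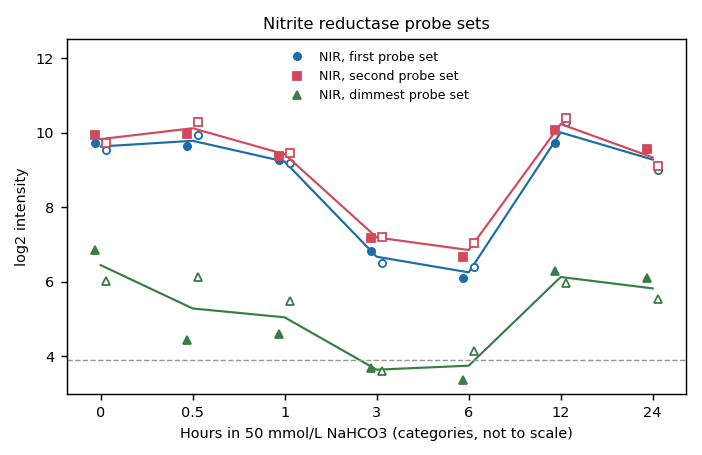
The log2 intensity of the 3 NIR probe sets is plotted over the hours in NaHCO3; filled and open symbols are replicate 1 and replicate 2, lines join the means of the 2 arrays, and the dashed line is background at 3.91. All 3 probe sets lie lowest at 3 and 6 h, and the dimmest one reaches background there.

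The second NIR probe set (cluster Gma.31) had 9.94 and 9.71 (0 h), 9.96 and 10.27 (0.5 h), 9.37 and 9.46 (1 h), 7.18 and 7.19 (3 h), 6.67 and 7.03 (6 h), 10.06 and 10.40 (12 h), and 9.55 and 9.12 (24 h). Its 3 and 6 h arrays were again lower than all others. Its log2 change against 0 h was -2.64 ± 0.21 at 3 h and -2.98 ± 0.21 at 6 h (adjusted p = 0.00212 and 0.00019). Both probe sets measure the same gene and their values over the 14 arrays had a Pearson r of 0.996, so they are not separate evidence. The third, of the same cluster, was dim, with 6.86 and 6.03 (0 h), 3.68 and 3.60 (3 h), 3.36 and 4.13 (6 h), 6.29 and 5.96 (12 h), and 6.11 and 5.53 (24 h). As both of its 3 h arrays were at or under background, that difference is only a bound, at least 5.79-fold lower at 3 h than at 0 h (adjusted p = 0.0288), with the bound set by the background level. Replicates of this probe set also differed at 0.5 h (4.44 and 6.12) and at 1 h (4.60 and 5.49), where no change was called. Its fall at 3 h against 1 h is a bound as well, at least 2.20-fold, and that call (adjusted p = 0.141) was lost in 10 of the 14 fits without 1 array.

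Between consecutive times, the largest fall of NIR lay between 1 and 3 h and the return between 6 and 12 h. At 1 h against 0.5 h the first and second probe sets were already lower, without overlap of their arrays. Those changes (-0.56 ± 0.25 and -0.70 ± 0.21) were not called in limma (adjusted p = 0.388 and 0.221). On the first probe set the change was -2.55 ± 0.25 at 3 h against 1 h (adjusted p = 0.00733), -0.42 ± 0.25 at 6 h against 3 h (adjusted p = 0.386) and 3.75 ± 0.25 at 12 h against 6 h (adjusted p = 0.000155), which is 13.5-fold higher. These steps share arrays with the changes against 0 h and are a second reading of the same values. At 24 h the level was lower than at 12 h by 0.73 ± 0.25 on this probe set (log2 change -0.73, adjusted p = 0.0709) and by 0.90 ± 0.21 on the second (log2 change -0.90, adjusted p = 0.0189). The first of these calls was lost without replicate 2 of 12 h (-0.45, adjusted p = 0.302) or of 24 h (-0.46, adjusted p = 0.374), and both were lost when only the 4 arrays compared were fitted.

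In order of mean level, NIR on the first probe set ran from 12 h (9.72 and 10.29 on its arrays) through 0.5 h (9.78), 0 h (9.63), 24 h (9.28) and 1 h (9.22) to 3 h (6.67) and 6 h (6.25). Neighbours among the upper 5 times overlapped in their arrays. The 3 and 6 h arrays did not overlap, but their difference did not pass the test, and neither did the changes against 0 h at 0.5 h (0.15), 1 h (-0.41), 12 h (0.38) and 24 h (-0.35), each with an SE of 0.25. On the second probe set the change at 24 h against 0 h was -0.49 ± 0.21 and missed the adjusted limit (0.155).

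NIR was low on both arrays of 3 and 6 h, where the nodulin mean was 9.52 and 6.59 (3 h) and 8.01 and 4.38 (6 h). Within the 0.5 h pair the nodulin mean was 9.61 on replicate 1 and 3.51 on replicate 2, and NIR read 9.63 and 9.93. Over the 14 arrays the r between NIR and the nodulin mean was 0.21. With the nodulin mean as a covariate the changes on the first probe set were -2.97 at 3 h and -3.43 at 6 h, and without the 3 arrays of low nodulins they were -2.96 and -3.52, all of them called. Any part of nodule tissue in the NIR values was not tested. Leaving out any single array gave changes of -3.11 to -2.80 at 3 h and -3.52 to -3.24 at 6 h on this probe set. A two-sample t-test on the 4 arrays compared, with 2 degrees of freedom, gave the same differences as the main fit. Its adjusted p was 0.23 at 3 h and 0.14 at 6 h.

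**Figure D2:**
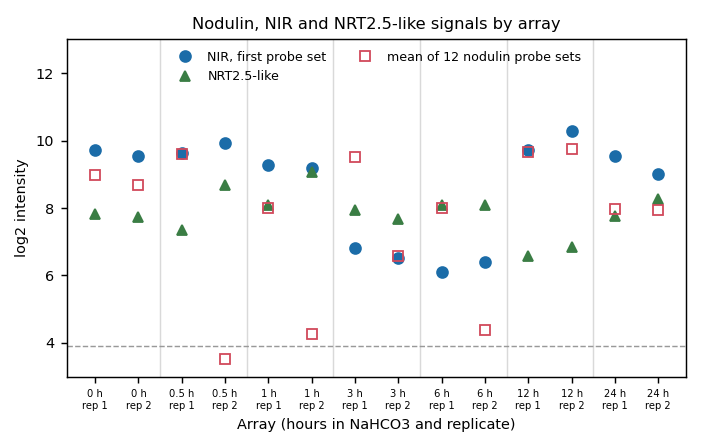
Log2 intensity on each of the 14 arrays, ordered by the hours in NaHCO3, for the first NIR probe set (circles), the NRT2.5-like transporter (triangles) and the mean of the 12 probe sets with nodulin symbols (open squares); the dashed line is background at 3.91. The nodulin mean drops on replicate 2 of 0.5, 1 and 6 h and, to 6.59, on replicate 2 of 3 h. NIR is low on both arrays of 3 and 6 h.

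GS1alpha, a cytosolic glutamine synthetase that joins ammonium to glutamate, moved the other way and was higher from 3 to 12 h. Its brighter probe set (cluster GmaAffx.91964) read 9.24 and 9.19 (0 h), 9.69 and 9.69 (0.5 h), 9.58 and 9.47 (1 h), 9.92 and 10.09 (3 h), 10.19 and 10.43 (6 h), 10.15 and 9.87 (12 h), and 9.28 and 9.75 (24 h). Every stress array lay above both 0 h arrays, by the least on replicate 1 of 24 h. At 6 h the level was 2.14-fold that of 0 h (change of 1.09 ± 0.19, adjusted p = 0.00685). At 3 and 12 h it was higher than at 0 h by 0.79 ± 0.19 each (adjusted p = 0.0478 and 0.0214). The differences at 0.5 h (0.48 ± 0.19, adjusted p = 0.243), 1 h (0.31) and 24 h (0.30) were not called.

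The dimmer GS1alpha probe set, of the same cluster, read 5.68 and 5.47 (0 h), 6.91 and 6.38 (0.5 h), 6.16 and 5.67 (1 h), 6.75 and 7.35 (3 h), 7.10 and 7.37 (6 h), 7.01 and 7.21 (12 h), and 6.02 and 6.31 (24 h). The arrays of 0.5, 3, 6, 12 and 24 h did not overlap those of 0 h, and one 1 h array did. Its level was already higher at 0.5 h (change of 1.07 ± 0.26 against 0 h, adjusted p = 0.0849). Against 1 h the level at 3 h was higher by 1.13 ± 0.26 (adjusted p = 0.0448), a call lost without replicate 2 of 1 h (0.89) or of 3 h (0.83). The changes against 0 h were 1.47 at 3 h (adjusted p = 0.0244), 1.66 or 3.16-fold at 6 h (adjusted p = 0.00507) and 1.53 at 12 h (adjusted p = 0.00478). Both probe sets had an r of 0.911 over the 14 arrays. The brighter one, by its suffix, can also bind related transcripts, and why the size of the change differs between them was not tested.

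At 24 h both GS1alpha probe sets were lower than at 12 h, by 0.49 ± 0.19 on the brighter one (log2 change -0.49, adjusted p = 0.1) and 0.95 ± 0.26 on the dimmer one (log2 change -0.95, adjusted p = 0.0368). Single arrays decided some of the smaller calls. On the brighter probe set the 3 h call was lost without replicate 1 or 2 of 0 h or replicate 2 of 3 h (0.71 to 0.82, adjusted p = 0.164 to 0.223), and the 24 h step without replicate 1 of 12 h (-0.35) or of 24 h (-0.25). That step was also lost under median centring (-0.39), with only the 4 arrays compared and without the 3 arrays of low nodulins. On the dimmer one the 0.5 h call was lost without either 0 h array (1.17 and 0.97) or replicate 1 of 0.5 h (0.81). The changes at 6 and 12 h remained called without any single array on both probe sets, and without the 3 arrays of low nodulins they were 0.97 and 0.79 on the brighter and 1.52 and 1.53 on the dimmer.

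**Figure D3:**
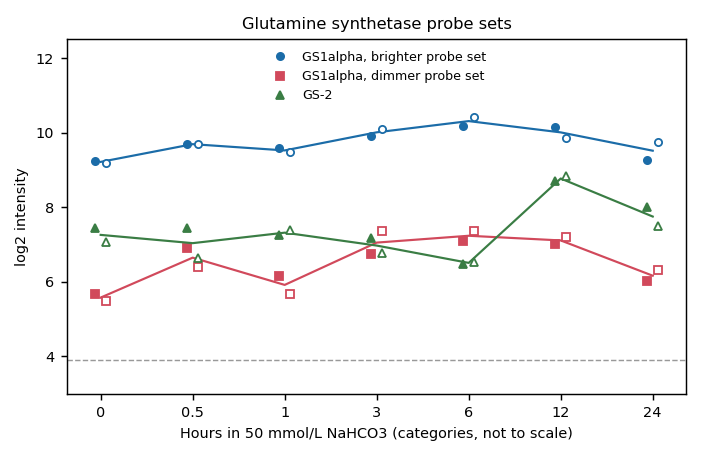
The log2 intensity of 3 glutamine synthetase probe sets is plotted over the hours in NaHCO3; filled and open symbols are replicate 1 and replicate 2, lines join the means, and the dashed line is background at 3.91. Both GS1alpha probe sets are highest at 6 h or near it, whereas GS-2 is lowest at 6 h (6.51 on average) and highest at 12 h (8.77).

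Among the 5 members found by description, GS-2 (cluster Gma.3161), the plastid glutamine synthetase, read 7.44 and 7.07 (0 h), 7.43 and 6.64 (0.5 h), 7.24 and 7.39 (1 h), 7.17 and 6.77 (3 h), 6.47 and 6.54 (6 h), 8.69 and 8.85 (12 h), and 8.01 and 7.49 (24 h). Both 12 h arrays were higher than the other 12 and both 6 h arrays were lower. The log2 change was -0.75 ± 0.28 at 6 h and 1.51 ± 0.28 at 12 h against 0 h, and 2.26 ± 0.28 at 12 h against 6 h. At 24 h it was lower than at 12 h by 1.02 ± 0.28 (log2 change -1.02), a call lost without replicate 2 of 24 h (-0.76). The 6 h call was lost without either 0 h array or either 6 h array (-0.93 to -0.57), and with median centring (-0.66) or quantile normalization (-0.69). GS-2 thus stood high at 12 h, as GS1alpha did, but low at 6 h, where GS1alpha was highest, and the r between GS-2 and the brighter GS1alpha probe set was -0.17 over the 14 arrays. The nodulin mean had an r of 0.57 with GS-2 over the 14 arrays, and with it as a covariate the change was -0.56 at 6 h, no longer called, and 1.45 at 12 h.

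The nonsymbiotic hemoglobin probe set, which the annotation gives to a pair of genes (LOC102661758 and LOC100804511; cluster GmaAffx.93215), had the largest change against 0 h of the 10 members. It read 12.05 and 11.45 (0 h), 11.88 and 11.45 (0.5 h), 11.51 and 11.57 (1 h), 10.60 and 10.85 (3 h), 7.93 and 8.12 (6 h), 10.96 and 11.30 (12 h), and 10.12 and 9.72 (24 h). The 6 h arrays were lower than all others, and those of 3, 12 and 24 h lay between them and the earlier times without overlap. Against 0 h the level at 6 h was 13.2-fold lower (log2 change -3.72), and the changes at 3 h (-1.02), 12 h (-0.62) and 24 h (-1.83) were smaller, each ± 0.25. The 12 h call was lost in 8 of the 14 fits without 1 array (-0.32 without replicate 1 of 0 h), under median centring (-0.51) or quantile normalization (-0.64), with the replicate block (adjusted p = 0.153) and with both nodulin alternatives. The 3 h call was lost without replicate 1 of 0 h (-0.72) or either 3 h array (-0.90 and -1.15). From one time to the next the level changed by -0.82 at 3 h against 1 h, by -2.70 at 6 h against 3 h and by -1.21 at 24 h against 12 h, and the first of these calls was lost without either array of 1 or 3 h (-0.95 to -0.69). Hemoglobin and NIR shared the low point at 6 h and the higher level at 12 h, by 3.10 ± 0.25 against 6 h for hemoglobin, but not the course before and after. At 3 h NIR had already lost 2.96 of its 3.38 and hemoglobin 1.02 of its 3.72, and at 24 h hemoglobin was low again while the change of NIR was not called. The r between hemoglobin and the first NIR probe set was 0.72 over the 14 arrays, which share their scaling and the times of sampling.

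**Figure D4:**
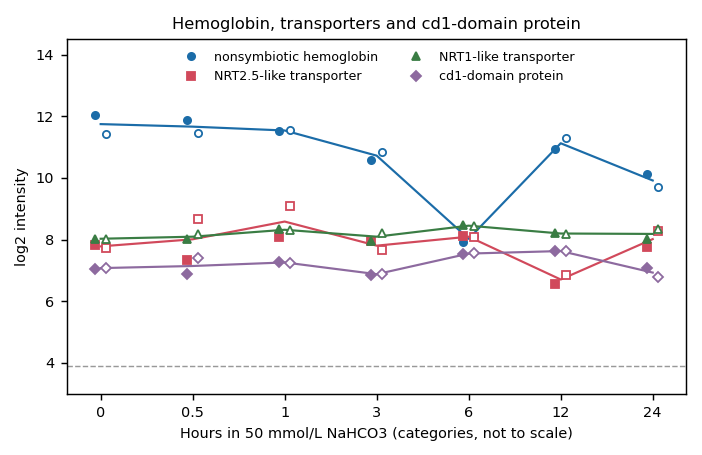
The log2 intensity of the nonsymbiotic hemoglobin, the NRT2.5-like and NRT1-like transporters and the cd1-domain protein is plotted over the hours in NaHCO3; filled and open symbols are replicate 1 and replicate 2, lines join the means, and the dashed line is background at 3.91. Hemoglobin averages 8.03 at 6 h, and the NRT2.5-like transporter is lowest at 12 h.

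Of the transporter members, the NRT2.5-like one was lowest at 12 h. A probe set (cluster Gma.6352) whose closest Arabidopsis match is NRT2.5, a high-affinity nitrate transporter, read 7.82 and 7.73 (0 h), 7.34 and 8.68 (0.5 h), 8.09 and 9.08 (1 h), 7.94 and 7.66 (3 h), 8.10 and 8.09 (6 h), 6.56 and 6.84 (12 h), and 7.75 and 8.28 (24 h). Both 12 h arrays were lower than the other 12, with a change of -1.08 ± 0.42 against 0 h and -1.39 ± 0.42 against 6 h, and 24 h was higher than 12 h by 1.31 ± 0.42. Its pairs at 0.5 and 1 h spread by more than a log2 unit or close to it, the higher array each time being the one with low nodulins, and its r with the nodulin mean was -0.75 over the 14 arrays. With the nodulin mean as a covariate the step at 12 h against 6 h was -0.86 and no longer called (adjusted p = 0.173), and it was also lost without replicate 1 of 6 h (-1.38). The step at 24 h was lost without replicate 1 of 12 h (1.17) or replicate 2 of 24 h (1.05). The call at 12 h against 0 h was lost without either 0 h array, either 3 h array, either 6 h array or either 12 h array (-1.22 to -0.94).

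A probe set (cluster GmaAffx.71001) matched to the Arabidopsis transporter PTR2-B, listed there as nitrate transporter 1, stayed between 7.96 and 8.48 on the 14 arrays and was called only at 6 h (8.48 and 8.43, against 8.03 and 8.02 at 0 h, a change of 0.42 ± 0.16). The last member (cluster Gma.942) matched the rule only through the name of a cytochrome cd1-nitrite reductase-like domain in the description of a protein of unknown function. It read 7.52 and 7.57 at 6 h and 7.64 and 7.62 at 12 h, against 7.05 and 7.09 at 0 h (changes of 0.47 and 0.55, each ± 0.18). It was higher at 6 h than at 3 h by 0.67, a call lost without any one array of those times, and its change at 24 h against 12 h was -0.70, a call lost without replicate 2 of 24 h (-0.54). The 6 h calls of both probe sets were lost without any one of the 0 h, 1 h or 6 h arrays, and that of the second also without either 3 h array. Both 6 h calls were also lost without the filter on low values and under both nodulin alternatives. The 12 h call of the second was lost without any one of the 0 h or 12 h arrays.

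Over the 10 members and 6 stress times, 23 of 60 changes against 0 h were called, 11 higher and 12 lower. All 6 comparisons share the 0 h arrays. At 0.5 h 1 member was higher (GS1alpha, dimmer probe set) and none lower, where 2.26% of all probe sets tested were called higher and 3.27% lower. At 1 h limma called none of the 10 members, with 0.179% of all probe sets higher and 0.375% lower. There 1 member, the dimmest NIR probe set, had an unadjusted p under 0.05 in limma, as had 2440 of all 28567 probe sets. The two-sample t-test run here called none of the 28567 at 1 h. At 3 h 2 members were higher (5% of all probe sets) and 4 lower (12%). At 6 h 4 were higher (8.67%) and 5 lower (12.1%), and at 12 h 4 were higher (7.95%) and 2 lower (16.4%). At 24 h none was higher (6.07%) and 1 was lower (19.6%). As at least 9 of the 10 had been listed for changing, a share above the background is no result for them. Of the 5 members found by symbol, 4 of them listed, the 3 of NIR were lower and the 2 of GS1alpha higher at both 3 and 6 h. Between consecutive times 21 changes were called. None was called at 1 h against 0.5 h (0.851% of all probe sets higher, 0.693% lower). There 3 of the 10 had an unadjusted p under 0.05 in limma, as had 3604 of all 28567 probe sets. These 3 were the first and second NIR probe sets and the dimmer GS1alpha one, all with lower values at 1 h. At 3 h against 1 h 1 was higher (5.51%) and 4 were lower (11.6%), and at 6 h against 3 h 1 was higher (8.05%) and 1 lower (4.56%). At 12 h against 6 h 5 were higher (15.3%) and 1 was lower (18.6%), and at 24 h against 12 h 1 was higher (12.1%) and 7 were lower (19.8%). Without replicate 1 of 0 h, the count of 23 against 0 h became 14.

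The other genes of the pathway came from a list of 51 probe sets, 31 by symbol and 20 by description, of which 47 were tested. Against 0 h, 4 were called higher at 0.5 h (2.26% of all probe sets tested) and none lower (3.27%). At 1 h none was called (0.179% of all higher, 0.375% lower). There 3 of the 47 had an unadjusted p under 0.05 in limma, beside 2440 of all 28567 probe sets. At 3 h 8 were higher (5% of all) and 8 lower (12%), and at 6 h 14 were higher (8.67%) and 10 lower (12.1%). At 12 h 5 were higher (7.95%) and 11 lower (16.4%), and at 24 h 6 were higher (6.07%) and 13 lower (19.6%). The median change over the 47, from 3 h on, was 0.03, -0.06, -0.35 and -0.39, beside -0.14, -0.05, -0.04 and -0.13 over all probe sets tested. At least those found by description had been listed for changing on these arrays.

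Nitrate reductase, the enzyme before NIR in the pathway, was on the list with INR1 and INR2. INR1 read 9.85 and 9.71 (0 h), 9.60 and 10.83 (0.5 h), 9.56 and 9.40 (1 h), 8.16 and 7.91 (3 h), 8.05 and 7.91 (6 h), 9.80 and 10.34 (12 h), and 9.30 and 9.14 (24 h). As with NIR, its 3 and 6 h arrays were lower than the other 10, with changes of -1.75 ± 0.33 (adjusted p = 0.0294) and -1.80 ± 0.33 (adjusted p = 0.00961) against 0 h and 2.09 ± 0.33 at 12 h against 6 h. INR2 changed by -1.86 ± 0.34 at 3 h and -1.58 ± 0.34 at 6 h against 0 h (adjusted p = 0.027 and 0.019). A probe set for a protein with a MoaC region, a step in making the molybdenum cofactor that nitrate reductase carries, was lower at each time from 3 h on (-0.88, -1.23, -0.63 and -0.39 in order).

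Genes that supply reducing power were also on the list. A plastid glucose-6-phosphate dehydrogenase, the first enzyme of the oxidative pentose phosphate pathway, named G6PD2 after Arabidopsis, was lower at 3 and 6 h on both of its probe sets, with changes of -1.23 and -1.03 on the first (SE 0.18) and -0.95 and -0.55 on the second. Of the probe sets matched to G6PD6, a cytosolic form in Arabidopsis, 2 were higher at 6 h (0.60 and 0.55), and 6-phosphogluconate dehydrogenase was higher at 6 h on 4 probe sets (0.93 to 1.29). Whether the forms differ in their response was not tested. The LOC100808254 probe set, described as a chloroplast ferredoxin, was lower at 3 and 6 h (-2.25 and -2.72, with 1 of the 6 h arrays under background). At 24 h it was higher (2.39 ± 0.50). At 12 h both of its arrays were under background (2.69 and 3.75), so that the difference is only a bound, at least 7.95-fold lower than at 0 h. One of the 2 LOC100305932 probe sets was also lower at 6 and 12 h (-3.46 and -1.54) and higher at 24 h (1.36 ± 0.54), and the other changed by -0.51 at 12 h and -0.34 at 24 h. The ferredoxin probe set LOC100499711 was instead higher at 12 h (0.50 ± 0.15) and had no other call against 0 h. Plastocyanin, a marker of green tissue, read 6.83 and 6.48 (6 h), 6.04 and 7.33 (12 h), and 8.83 and 8.69 (24 h) on one LOC100306554 probe set, against 8.61 and 8.59 at 0 h, and its other 2 probe sets were likewise lower on the arrays of 6 and 12 h than at 0 h. The fourth probe set of the green tissue list, a plastocyanin-like protein, read 10.41 and 10.35 at 6 h, against 8.78 and 8.97 at 0 h. The part of green tissue in the ferredoxin values was not tested, nor was which ferredoxin gives electrons to nitrite reductase in these roots.

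The nitrate and ammonium transporters outside the members went several ways. NRT2, by symbol, was higher at 0.5 h (0.77 ± 0.24, adjusted p = 0.15, just inside the limit) and at 24 h (0.73 ± 0.24), and NRT1-3 was higher at 6 h on both probe sets (0.90 and 1.22). AMT1.3, an ammonium transporter, read 8.0 and 7.41 (0 h), 6.51 and 6.79 (3 h), 8.74 and 9.30 (12 h), and 8.83 and 9.02 (24 h), so that it was lower at 3 h (-1.06 ± 0.32) and higher at 12 and 24 h (1.32 and 1.22). A transporter matched to AMT1;1 of Lotus japonicus was instead highest at 6 h, with 10.71 and 10.44, against 8.99 and 8.58 at 0 h (1.79 ± 0.28, adjusted p = 0.00455). A pair of probe sets for other ammonium transporters, matched to AMT2 of Arabidopsis and to a rice protein, were higher at 3 h (0.67 and 0.79) and 6 h (0.85 and 0.93) and lower at 12 h (-0.78 and -0.74) and 24 h (-0.41 and -0.85). A pair described as nitrate and chloride transporters took the same course at 3, 6 and 24 h (0.98, 0.96 and -1.10 on one, 0.83, 0.77 and -0.84 on the other).

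Downstream of glutamine synthetase, AS2, an asparagine synthetase, was lower at 6 h (9.87 and 9.74, against 11.24 and 11.42 at 0 h on one of its probe sets, -1.53 ± 0.21, adjusted p = 0.00312) and higher at 12 and 24 h (0.64 and 0.78). GLT1, a glutamate synthase, averaged 5.58 at 0 h, 6.33 at 6 h and 4.82 at 24 h. GDH1, a glutamate dehydrogenase, was lower at 12 h (-0.82) and 24 h (-1.16) on one probe set and on another (-0.82 and -1.48). GDH2 averaged 6.06 at 0 h and 6.57 at 24 h on one probe set. On another it averaged 4.87 and 3.98, with 24 h arrays of 4.59 and 3.36. The AAT probe sets, for aspartate aminotransferase, had no call at any stress time, nor had those for SAT1 and UR2. GS1-GAMMA, a cytosolic glutamine synthetase, had replicates too far apart to be tested, and GS1GAMMA2 was tested with no call. GS1-GAMMA was lowest on the 3 arrays with low nodulins (2.41, 1.93 and 3.13 on replicate 2 of 0.5, 1 and 6 h). GS1GAMMA2 was lowest on the same arrays (3.88, 3.91 and 3.74, at or under background), and its 3 h arrays read 6.77 and 4.01.

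**Figure D5:**
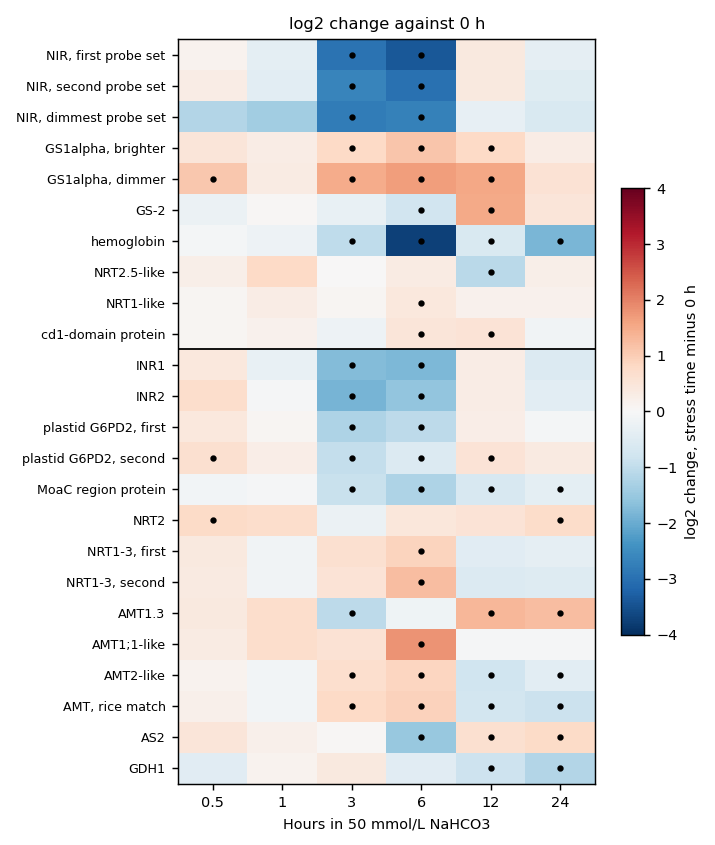
Log2 change of each stress time minus 0 h (colour, red higher and blue lower than 0 h) for the 10 members, above the black line, and 14 probe sets of related genes; columns are hours in NaHCO3 and black dots mark called changes. NIR, INR1, INR2 and plastid G6PD2 are blue at 3 and 6 h, where GS1alpha and several ammonium transporters are red. The ammonium transporter AMT1.3 is instead blue at 3 h.

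The probe sets most like NIR over the 14 arrays, by Pearson r with the mean of the 3 NIR probe sets, were plastid G6PD2 on its first probe set (r = 0.948), LOC100815447, described as an Aux/IAA protein (0.942), INR1 (0.939), LOC100500128 (0.932) and LOC100306437 (0.926). All were lower at 3 and 6 h, by smaller amounts than NIR: LOC100815447 changed by -0.69 and -0.81, LOC100500128 by -0.73 and -0.71, and LOC100306437 by -1.03 and -1.0. For the mean of the GS1alpha probe sets the most alike were a probe set described after an Arabidopsis glutamine synthetase gene (ATGSR1, r = 0.87), a dihydroflavonol 4-reductase family member (0.852), CHI1B1, a chalcone isomerase (0.852), a putative aldo/keto reductase (0.851) and CHR5 (0.844). The ATGSR1 probe set, whose description spells the enzyme as a synthase and so was no member, was higher at 3, 6 and 12 h by 0.73, 1.11 and 0.68 (SE 0.19). CHI1B1, an enzyme of flavonoid synthesis, was higher by 1.52 at 3 h and 1.62 at 6 h, and CHR5 by 1.26 and 1.88. These r values describe 14 arrays that share their sampling times, were picked as the highest of all probe sets with a name or description, and carry no test.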

How the data were processed

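Root RNA was hybridized to the Affymetrix soybean genome array. The authors made the deposited linear intensity values in dChip from perfect-match probes. For each time, 1 array was scaled to the median of all 14 arrays and the other was fitted to it by an invariant set. Chip annotation and descriptions are closest matches, often in Arabidopsis; 1 description list was held only in shortened form.

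Intensities under 1 were raised to 1 and log2 values taken from the deposited intensities, with no further normalization. Of 37593 soybean probe sets, 28567 were tested: those with a mean above the 95th percentile of 23350 pathogen probe sets, 3.91 on the log2 scale (intensity 15.1), and a median replicate SD/mean over 0 and under 0.5, which removed 160. limma 3.58.1 in R 4.3.3 fitted 7 groups on 14 arrays (7 residual and 3.24 prior degrees of freedom, median SE of a change 0.236), and p-values were adjusted by Benjamini-Hochberg over all probe sets tested. The number of arrays limits the precision, and p-values measure the spread between 2 root pools per time. A two-sample t-test of log2 values on the 4 arrays compared, with the filter and adjustment used here, was an alternative. It was modelled on the methods but is not the study's own test. The script was tested on simulated data.

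The text names all members, the 5 probe sets with the highest r to NIR and to GS1alpha, and the ammonium transporters. It also names related genes drawn from those called at 2 or more stress times (26). NRT1-3, GLT1, GDH2, AAT, SAT1, UR2 and the GS1-GAMMA genes were named besides after their values were seen. INR1 and INR2 met the limit of 2 stress times, and their values had been seen as well. Members and lists were chosen with earlier results of these data known. The nodulin alternatives were added after the data were seen. The labels and the methods differ on seedling age and day length, and neither was used. The replicates were fitted as unpaired.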

Additional observations from a re-analysis of the deposited data

How the results depend on the processing

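Of the 44 called member changes, none turned round under any of the alternatives run. Quantile normalization kept 41 calls, median centring 39, log2(intensity + 16) 43, testing all soybean probe sets 38, no limit on SD/mean 44, and only the 4 arrays compared 37. The replicate number as a block kept 41, with 21 calls against 0 h and 20 between consecutive times. Over 21 pairs of times the replicate differences correlated from -0.349 to 0.295, with 6 over 0.1. These values cannot settle whether the replicate numbers pair arrays. The nodulin mean was far lower on replicate 2 than on replicate 1 at 0.5, 1, 3 and 6 h. The nodulin covariate kept 38 calls (19 of the 23 against 0 h, and 21 called in that fit) and leaving out the 3 arrays of low nodulins 35 (19 against 0 h, and 20 called). The methods' t-test, which has 2 degrees of freedom, kept 6. It called 4 of 60 member changes against 0 h, in 4 members and all at 6 h. Between consecutive times it called 2, both at 12 h against 6 h. Of all 28567 probe sets it called 451 higher and 526 lower at 6 h against 0 h. At 12 h against 6 h these counts were 289 and 685, and at 3 h against 0 h only 2 probe sets were called. Under it NIR on its first probe set (-2.96 at 3 h, adjusted p = 0.23; 3.75 at 12 h against 6 h, adjusted p = 0.156), GS1alpha on the brighter probe set (1.09 at 6 h, adjusted p = 0.164) and hemoglobin (-3.72 at 6 h, adjusted p = 0.156) missed the limit. Leaving out single arrays gave 14 to 25 member calls against 0 h, in 7 to 10 members, and 17 to 22 between consecutive times; 14 came without replicate 1 of 0 h. The number of arrays limits all of these values, and the dimmest NIR probe set was at or under background on 3 of them.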
